A study of Mus musculus with 6 samples.

Results

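The placental prolactins, the pregnancy-specific glycoproteins (Psg) and the carcinoembryonic antigen-related cell adhesion molecules (Ceacam) were examined in the brains of 6 mouse embryos. The genes were chosen by symbol alone, as those starting with Prl2 to Prl8, Psg or Ceacam. This gave 55 of the 53801 genes of the table, 25 prolactins, 14 Psg genes and 16 Ceacam genes. Polyadenylated RNA had been sequenced from whole brains of C57BL/6 embryos at the E16.5 stage, shortly before birth. Of these, 3 embryos were Bahd1-KO, named KO1, KO2 and KO3 here, and 3 were Bahd1-WT, named WT1, WT2 and WT3. Bahd1 encodes a protein of repressive chromatin complexes. The KO embryos lacked it in the whole body, and both genotypes came from matings of heterozygous parents. The dam and litter of each embryo are not given in the sources used here. The embryos are labelled as biological replicates, and p-values measure the spread between these embryos.

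In mice, the prolactin family was greatly expanded by gene duplication, and most of its members are hormones or cytokines made by trophoblast, the fetal cell lineage of the placenta, or by the maternal decidua. Psg proteins are secreted immunoglobulin-like proteins of the spongiotrophoblast and giant cells, released in large amounts into the mother's blood. Ceacam proteins belong to the same immunoglobulin superfamily. Some, such as Ceacam1, are adhesion receptors of epithelia, vessels and leukocytes, while Ceacam9 and Ceacam11 to Ceacam15 are rodent genes known mainly from trophoblast. The question was which of these genes appeared in the embryonic brain libraries, and in which embryo.

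The libraries held 61.7 to 91.8 times 1e6 counts, so 1 count stood for 0.0109 to 0.0162 CPM, the number of counts of a gene in 1e6 counts of its library. Bahd1 had a log2 fold change of -8.40 between KO and WT (adjusted p 0.0462, edgeR), which matched the labels. KO3 stood apart. Gm42418 (annotated over ribosomal RNA sequence), Lars2 and the mitochondrial genes together took 49.2% of its counts against 3.11 to 6.28% in the other embryos, and its 6 neuronal marker genes summed to 685 CPM against 7744 to 8993 CPM. Such a share lowers the CPM of all other genes of KO3, so its place in an order of CPM can depend on the scaling. Values with KO3 left out are given below where they differ.

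Of the 55 genes, 48 had a count in some embryo and 7 had none in any. The sum over the embryos reached 10 counts for 27 genes, which were tested, and lay between 1 and 9 for 21 genes. KO2 held a count of 39 of the 55 genes, against 13 in KO1, 14 in KO3, 25 in WT1, 16 in WT2 and 18 in WT3. At 10 or more counts, the number was 24 in KO2, 3 each in KO1 and the WT embryos, and 2 in KO3. KO2 was therefore the single embryo in which these families appeared as a group. In bulk RNA, more cells of a type and more RNA in each such cell cannot be told apart.

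To show the DNA in front of the genes that carried this pattern, the 250 bases before the transcription start of 5 of them are printed, from the RefSeq promoter table of GRCm38.p6. They are 2 prolactins, 2 Psg genes of near-identical sequence and 1 trophoblast Ceacam gene, all at starts shared by RefSeq and the GENCODE M21 gene model. Capitals mark matches on either strand to TATAAA for the TATA box, AGATAA for the GATA factors, TGANTCA for AP-1, GCCNNNGGC for AP-2 or GGAATG for TEAD, all motifs of factors known in trophoblast or of the core promoter.
Prl8a6 (chr13:27438689-27438938, reverse strand): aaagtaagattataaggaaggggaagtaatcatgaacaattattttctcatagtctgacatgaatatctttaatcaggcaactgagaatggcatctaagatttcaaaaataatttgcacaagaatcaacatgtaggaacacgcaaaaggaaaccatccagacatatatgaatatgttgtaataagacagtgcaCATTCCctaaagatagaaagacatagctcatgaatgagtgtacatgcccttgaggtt
Prl8a9 (chr13:27564607-27564856, reverse strand): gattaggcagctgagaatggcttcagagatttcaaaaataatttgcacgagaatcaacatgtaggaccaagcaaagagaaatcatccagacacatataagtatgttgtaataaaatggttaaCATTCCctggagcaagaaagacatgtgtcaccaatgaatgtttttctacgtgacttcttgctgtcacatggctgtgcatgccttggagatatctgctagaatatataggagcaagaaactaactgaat
Psg21 (chr7:18656726-18656975, reverse strand): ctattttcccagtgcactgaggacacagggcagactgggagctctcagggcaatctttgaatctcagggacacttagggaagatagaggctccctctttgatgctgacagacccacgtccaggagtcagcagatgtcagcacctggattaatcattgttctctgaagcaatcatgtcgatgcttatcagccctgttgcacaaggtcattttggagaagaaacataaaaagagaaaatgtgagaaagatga
Psg23 (chr7:18616502-18616751, reverse strand): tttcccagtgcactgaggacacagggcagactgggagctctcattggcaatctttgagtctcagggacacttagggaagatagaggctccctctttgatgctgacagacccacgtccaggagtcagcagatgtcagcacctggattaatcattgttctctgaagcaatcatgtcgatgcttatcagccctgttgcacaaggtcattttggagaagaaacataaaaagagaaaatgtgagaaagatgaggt
Ceacam12 (chr7:18065679-18065928, forward strand): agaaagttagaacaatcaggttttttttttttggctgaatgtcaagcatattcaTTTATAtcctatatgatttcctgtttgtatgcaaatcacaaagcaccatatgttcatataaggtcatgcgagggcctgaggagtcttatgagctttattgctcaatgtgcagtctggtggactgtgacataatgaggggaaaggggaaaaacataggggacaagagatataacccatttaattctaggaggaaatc

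Prl8a6 and Prl8a9 each held 1 match, CATTCC, the TEAD motif read on the other strand, and Ceacam12 held 1 TATA box match read on the other strand. The Psg21 and Psg23 stretches held none, and were alike in 244 of 246 aligned bases (99.2%). Across the families, 44 of 55 genes had a promoter in the table. A gene was counted where any of its listed promoters held the motif. The TEAD motif lay in 8 of 21 prolactin promoters (38.1%), in 0 of 10 Psg and 0 of 13 Ceacam promoters, and in 14.4% of all 27025 genes. The GATA motif lay in 9 of 21 prolactin (42.9%), 1 of 10 Psg and 6 of 13 Ceacam promoters (46.2%), against 11.4% of all genes. AP-1 was found in 7 of 21 prolactin promoters (33.3%), 3 of 10 Psg and 1 of 13 Ceacam (7.69%), against 7.82%. The TATA box was found in 3 of 21 (14.3%), 0 of 10 and 4 of 13 (30.8%), against 14.3%, and AP-2 in 1 of 21 (4.76%), 0 of 10 and 3 of 13 (23.1%), against 15.4%. The family figures also cover genes that had few or no counts in KO2. Of the 19 genes with at least 90% of their counts in KO2, 16 had a promoter. TEAD lay in 3 of these 16 (18.8%), GATA in 5 (31.2%) and AP-1 in 5 (31.2%). The TATA box lay in 3 (18.8%) and AP-2 in 0. Such matches describe the letters only, and the promoters of duplicated genes are not independent sequences.

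Among the prolactins, 6 genes appeared, and all 6 did so in KO2. Prl3b1 encodes placental lactogen II, the hormone that acts on the prolactin receptor in the later part of pregnancy. It had 229 counts in KO2, 4 in WT1 and 0 in KO1, KO3, WT2 and WT3. Prl8a9, Prl8a6 and Prl8a8 encode the prolactin-like proteins C, products of the spongiotrophoblast and giant cells. Prl8a9 had 184 counts in KO2, 1 each in KO3 and WT3 and 0 in KO1, WT1 and WT2. Prl8a6 had 110 counts in KO2, 2 in WT1 and 0 in the other 4 embryos. Prl8a8 had 31 counts in KO2 and 0 in the other 5. The remaining genes of the group are Prl2b1 (prolactin-like protein K) and Prl7a2 (prolactin-like protein F, a spongiotrophoblast product). Prl2b1 had 31 counts and Prl7a2 had 18, in both cases all in KO2. In each of these 6 genes the other KO embryos lay at 0 or 1 count, within the range of the WT embryos.

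The other 19 prolactins stayed at or under 7 counts in all. Prl3d1, Prl3d2 and Prl3d3 encode placental lactogen I, the giant cell hormone of mid-pregnancy, and had 1 count each over the 6 embryos. Prl7d1 (proliferin-related protein, an inhibitor of vessel growth) had 2 counts in KO2 and 2 in WT3. Among the Prl2c genes, which encode the proliferins, stimulators of vessel growth, Prl2c5 had 1 count and Prl2c1, Prl2c2 and Prl2c3 had none. Prl8a2, the decidual prolactin-related protein of the maternal side, had 1 count in KO2, 2 in WT1 and 1 each in WT2 and WT3. Prl3a1 had 4 counts and Prl5a1 had 2, all in KO2. Prl2a1 had 7 counts, of which 4 were in WT3, 1 in KO2 and 1 each in WT1 and WT2. Prl6a1 and Prl7b1 had 3 counts each and Prl7a1 and Prl7c1 had 1 each, none of them in KO2. No count was found for Prl3c1, Prl4a1 and Prl8a1. Against these low sums, which did not exceed 4 counts in any embryo, the 6 genes above stood out in KO2.

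Summed over the family, the prolactins had 615 counts in KO2, against 2 in KO1, 1 in KO3, 9 in WT1, 6 in WT2 and 12 in WT3. KO2 thus held 95.3% of the family's counts (exact 95% interval 93.4 to 96.8%). In CPM the family stood at 8.04 in KO2 (exact Poisson interval 7.42 to 8.71) and between 0.0127 and 0.131 in the other embryos. All intervals cover counting error only.

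Of the 14 Psg genes, 12 passed 10 counts and all 12 had their highest CPM in KO2, but they fell into 2 patterns. The first was that of the prolactins. Psg21 had 250 counts in KO2, 3 in WT1, 1 in KO1 and 0 in the other 3 embryos. Psg23, the gene most like it, had 178 counts in KO2, 1 in WT1 and 0 elsewhere. Psg27 had 97 counts in KO2 and 1 in WT3, and Psg26 had 67, all in KO2. The near-complete restriction of the reads to KO2 also held for smaller members. Psg28 had 49 counts in KO2 and 1 in WT1, and Psg19 had 16 in KO2 and 1 in WT1. Psg18 with 19 counts and Psg25 with 15 had none outside KO2. Psg-ps1, annotated as a pseudogene, had 72 counts in KO2 and 1 in WT1. Psg20 had no count, and Psg22 had 2, both in KO2.

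The second pattern was shown by Psg16, Psg29 and Psg17, which had counts in all 6 embryos. Psg16, a member known to be transcribed in brain, had the most counts of the 55 genes, 344, 705 and 173 in KO1, KO2 and KO3, and 523, 391 and 339 in WT1, WT2 and WT3. Its level was 5.66 ± 3.52 CPM in KO and 4.74 ± 0.994 CPM in WT (SD, n = 3 each), and the genotypes overlapped. KO2 was the highest embryo at 9.22 CPM and KO3 the lowest at 2.19 CPM. The place of KO3, and with it the KO spread, depends on the scaling. In CPM, KO3 held 5.32% of the Psg family and WT3 9.22%. With Gm42418, Lars2 and mitochondrial genes left out of the library size, these shares were 9.51% and 8.65%. Psg29 had 11, 29 and 4 counts in the KO embryos and 18, 13 and 16 in the WT embryos. Psg17, whose product binds the tetraspanin CD9, had 3, 27 and 4 counts in KO and 5, 7 and 7 in WT. KO2 was highest for each of these, while the other 5 embryos were not at 0.

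Because of Psg16, KO2 held 45.0% of the Psg counts (43.3 to 46.7%) and, without Psg16, 89.4% (87.3 to 91.3%). The 13 genes without Psg16 summed to 821 counts in KO2, 15 in KO1, 8 in KO3, 30 in WT1, 20 in WT2 and 24 in WT3. This corresponds to 10.7 CPM in KO2 and 0.101 to 0.327 CPM elsewhere.

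The Ceacam genes divided in the same way, with an additional gene that peaked in KO3. The trophoblast members Ceacam11, Ceacam14 and Ceacam12 had 190, 62 and 53 counts in KO2. Outside KO2, Ceacam11 and Ceacam12 had 1 count each in WT1 and Ceacam14 had 1 in WT2. Ceacam5 had 106 counts in KO2 and 1 each in KO3, WT1 and WT3. Ceacam13, another trophoblast member, had 7 counts, all in KO2, and Ceacam15 had 1 each in KO2 and WT1. Ceacam3 was present everywhere, with 7, 23 and 5 counts in KO and 6, 8 and 8 in WT. Ceacam9 had 1, 3 and 3 counts in KO and 1, 1 and 2 in WT, which is no more than a trace.

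Ceacam1, the adhesion and inhibitory receptor of epithelial, endothelial and immune cells, had 59, 51 and 792 counts in KO1, KO2 and KO3, and 79, 82 and 54 in the WT embryos. It was thus high in KO3 alone, at 1.73 RPKM (reads per kilobase of exon and 1e6 counts) against 0.102 to 0.173 RPKM in the other 5 embryos, and not raised in KO2. In KO3, other epithelial genes were also high. The 7 genes of an epithelium list summed to 295 CPM there, against 9.95 to 16.3 CPM elsewhere, and 6 of the 7 had their highest CPM in that embryo, Epcam with 5685 counts against 83 to 158 and Cdh1 with 12890 against 420 to 957. The 5 lung genes, surfactant proteins and Scgb1a1, summed to 740 CPM in KO3, 12.2 CPM in KO2 and 0.211 to 0.515 CPM in the other 4, and the 4 endothelial genes to 404 CPM in KO3 against 156 to 223 CPM. Of these 4, 3 were highest in KO3, while Cldn5 was lowest there in plain CPM, at 6.32 CPM against 8.59 to 36.6 CPM. That last place depends on the scaling. The normalization factors of edgeR were 0.684 in KO3 and 1.06 in KO1, and scaling by them puts KO1 below KO3. The part of these tissues in the Ceacam1 value was not tested. Ceacam1 is also a gene of leukocytes, and the neutrophil genes summed to 11.7 CPM in KO3 and 1.26 to 4.12 CPM elsewhere.

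Ceacam10 (a secreted relative of Ceacam1) had 3, 6 and 7 counts in KO and 2, 3 and 8 in WT, and Ceacam18 had 2, 1 and 1 in KO and 3, 2 and 3 in WT. The remaining members had sums of 3 to 7 counts. These were Ceacam-ps1 with 7, Ceacam2 and Ceacam20 with 6 each, Ceacam16, a protein of the tectorial membrane of the inner ear, with 4, and Ceacam19 with 3, all in KO3. Over all 16 Ceacam genes, KO2 held 30.2% of the counts (28.0 to 32.5%) and KO3 48.8% (46.4 to 51.2%). Without Ceacam1, the 15 genes summed to 456 counts in KO2 and 17 to 27 in the other embryos, so that KO2 held 81.3% (77.8 to 84.4%).

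**Figure D1:**
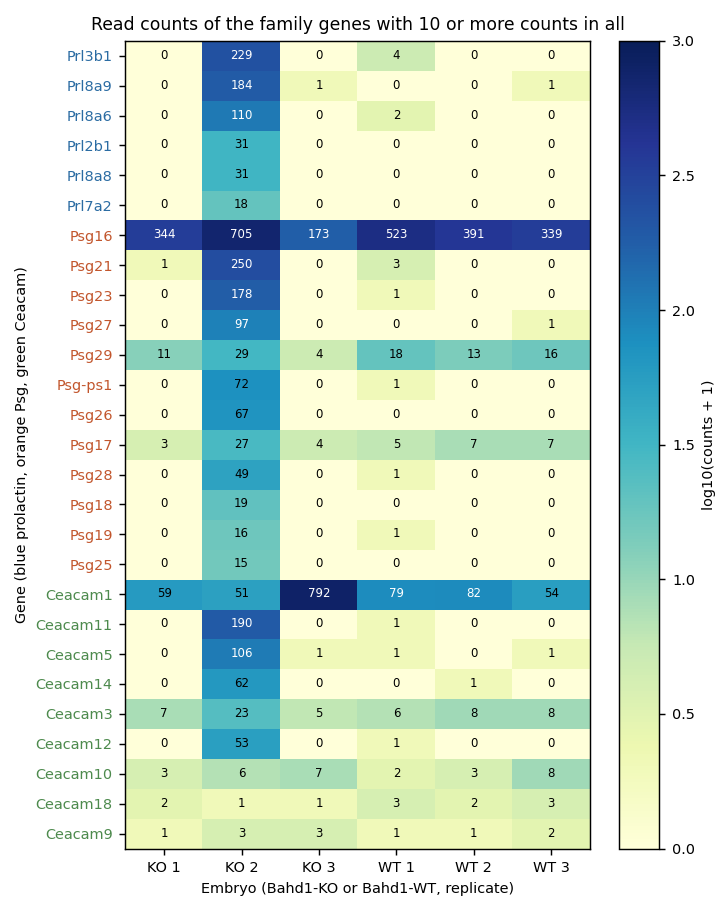
Read counts of the 27 genes with 10 or more counts in all, 1 row per gene (prolactin, Psg and Ceacam genes in blue, orange and green type) and 1 column per embryo, shaded by log10(counts + 1). The KO 2 column is filled from Prl3b1 with 229 counts to Ceacam12 with 53, Psg16 is filled in all embryos, and Ceacam1 is darkest in KO 3 with 792 counts.

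**Figure D2:**
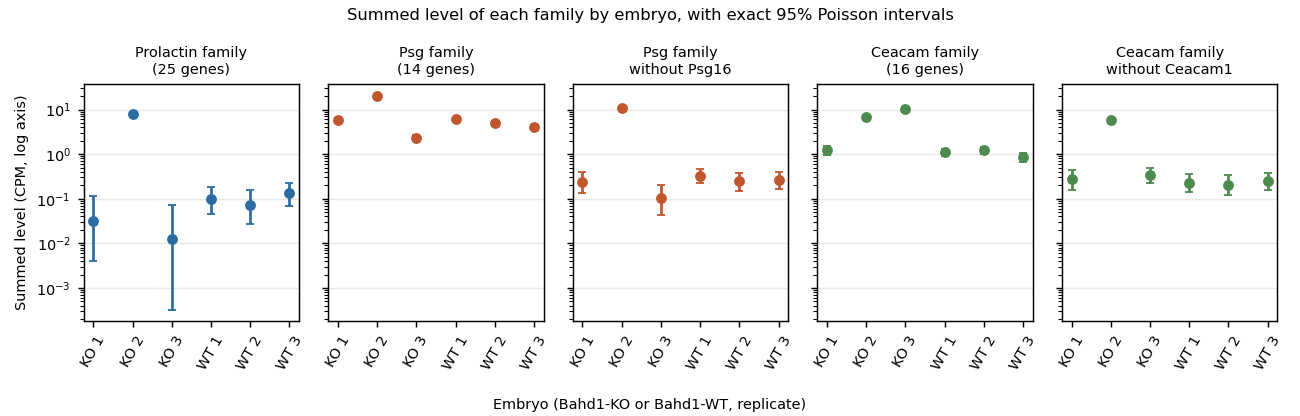
Summed level of each family in every embryo in CPM on a log axis, with and without Psg16 and Ceacam1. Points are single embryos and bars are exact 95% Poisson intervals for counting error. The prolactins stand at 8.04 CPM in KO 2 and at most 0.131 CPM elsewhere, and leaving out Psg16 and Ceacam1 gives the other families the same shape.

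Of the 27 tested genes, 20 reached the minimum of 10 counts only through KO2, which fixes a high place for KO2 in them, so the next counts are descriptions and support nothing. Among the 27, 24 had their highest CPM in KO2, where 9.21% of all 24739 tested genes did. The exceptions were Ceacam1, Ceacam10 and Ceacam18. Ceacam9 was among the 24 with 3 counts each in KO2 and KO3, so its place depends on the scaling. The shares of all genes by highest embryo are in plain CPM too and can also depend on it. Of the 7 genes that reached the minimum without KO2, 4 were highest in it, Psg16, Psg17, Psg29 and Ceacam3. KO3 was the top embryo for 2 of the 27, against 25.9% of all genes. At least 90% of the counts lay in KO2 for 19 of the 27 genes, 6 prolactins, 9 Psg and 4 Ceacam genes. Over all tested genes this was true of 32, or 0.129%. The members therefore made up 19 of 32. The remainder comprised 5 placental cathepsins, the trophoblast genes Tpbpa and Tpbpb, and 6 others (1600012P17Rik, Gm5155, Doxl2, Gm24205, Gm14391 and Gm6685). Gm5155 lies within the Ceacam stretch of chromosome 7, and shares 8.97% of the 65-base runs of Ceacam5. The same criterion gave 439 genes in KO3, 6 in WT3, 2 in KO1, 1 in WT1 and 0 in WT2.

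The 19 genes had 1777 of their 1800 counts in KO2. The other 23 counts were not evenly placed. WT1 held 16 of them, spread over 10 of the 19 genes with at most 4 in any gene, while KO1 held 1, KO3 held 2, WT2 held 1 and WT3 held 3. WT1 and KO2 did not share a genotype.

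Levels within KO2 were compared per length, in RPKM. Prl3b1 led at 2.81 RPKM (exact Poisson interval 2.46 to 3.198), followed by Prl8a9 at 2.55, Ceacam11 at 2.36, Psg16 at 1.68, Prl8a6 at 1.28, Psg23 at 1.07 and Psg21 at 0.955. The lowest of the 24 genes with 10 or more counts in KO2 was Psg25 at 0.0631 RPKM. Of the 23 neighbouring pairs in this order, 21 had overlapping intervals. The separate steps were those from Ceacam11 to Psg16 and from Psg16 to Prl8a6. Prl3b1, Prl8a9 and Ceacam11 were thus not separable from each other by counting error. They all lay above Psg16, the member with most counts in the other embryos. In the other embryos Psg16 stood at 0.399 to 1.04 RPKM.

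**Figure D3:**
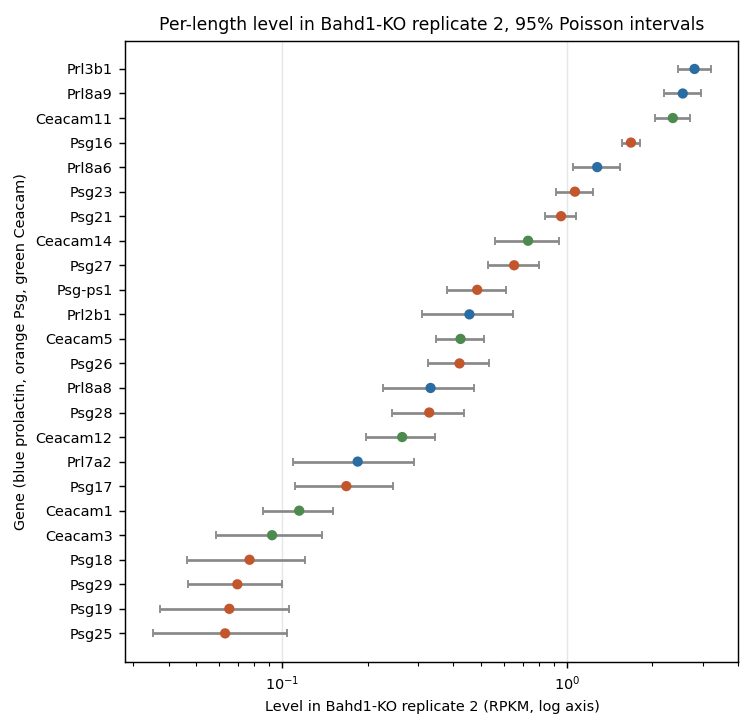
Per-length level in KO 2 of the 24 genes with 10 or more counts there, in RPKM on a log axis. Points are the values and bars the exact 95% Poisson intervals. Prl3b1 at 2.81 RPKM and Psg25 at 0.0631 RPKM are the ends of the order.

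The genes lie in 2 main clusters, and the reads in KO2 followed parts of them. On chromosome 13 (GRCm38), 22 prolactins lie between 27094190 and 28151611. The 6 genes that appeared fall between Prl3b1 and Prl7a2, among genes with 0 to 4 counts in KO2. Of the 22, 9 had 0 counts in KO2. The 3 Prl2c genes apart from the cluster, between 12790816 and 13191923, also had none. On chromosome 7, a stretch from 16648949 to 18821607 holds all 14 Psg and 9 Ceacam genes, and 17 of these 23 had 10 or more counts in KO2, 12 Psg and 5 Ceacam genes. Psg20 was the single gene of this stretch at 0. Its neighbours Psg21 and Psg22 had 250 and 2 counts in KO2, so adjacent genes differed widely. Ceacam1 lies outside, between 25461707 and 25477603.

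**Figure D4:**
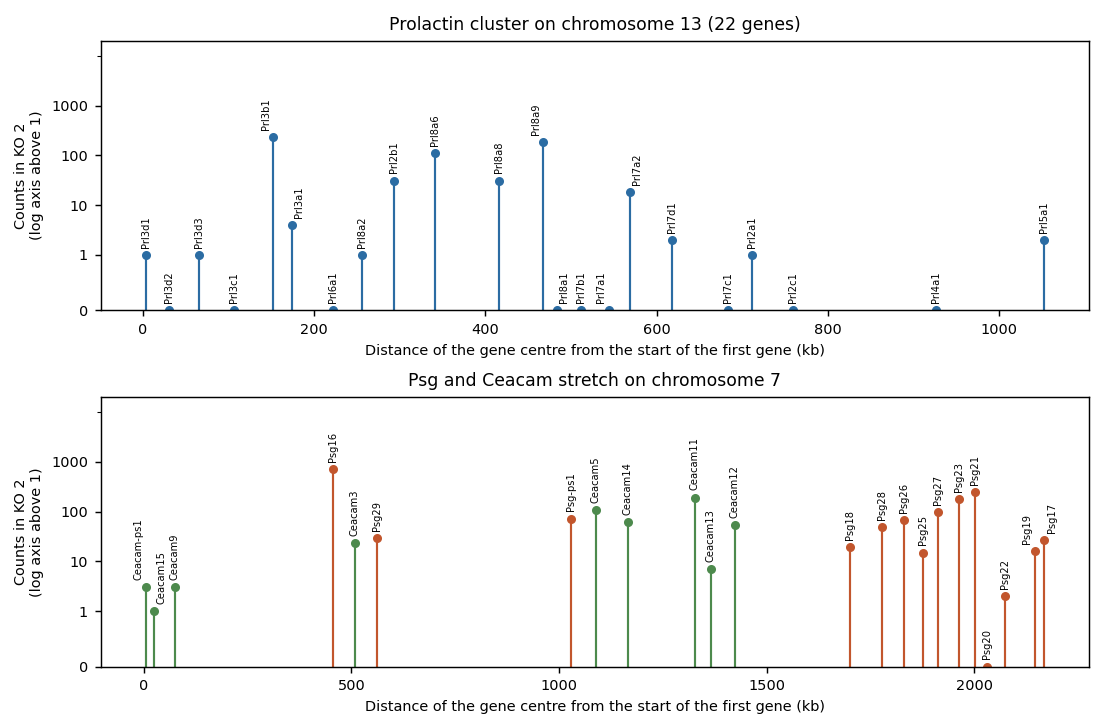
Counts in KO 2 against distance along the prolactin cluster (upper panel) and the Psg and Ceacam stretch (lower panel), each in kb from its first gene. Stems are genes, blue for prolactin, orange for Psg and green for Ceacam, on an axis that is logarithmic above 1. In the prolactin cluster, genes with 18 to 229 counts stand among genes with 0 to 4, and in the lower panel 17 of 23 genes reach 10.

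Near-identical copies limit what can be said of single members. Reads were 65 bases long, and a 65-base run found in another gene's transcripts cannot be assigned to 1 gene. Of the 55 genes, 26 shared no such run with any other gene, among them Prl3b1, Prl8a6, Prl8a8, Prl8a9, Prl2b1, Prl7a2, Ceacam11, Ceacam12 and Ceacam14. More than 10% of the runs were shared in 16 genes. Psg21 shared 19.8% and Psg23 27.9%, mostly with each other, and their coding sequences were 97.5% identical (36 differences). Psg26 and Psg28 (97.0%) shared 26.3% and 21.3%. Each of these still had most of its runs to itself, and all 4 followed the same pattern. Ceacam1 shared 26.6%, nearly all with Ceacam2, which had 6 counts in all. For genes with no counts the sharing matters more. Prl2c2 and Prl2c3 are 99.6% identical, with 3 differences in 672 bases, and shared 76.7% and 54.6%, so their 0 counts are uncertain. Prl3c1 and Prl4a1, also at 0, shared none, and a count of 0 in KO2 allows up to 0.0392 CPM (3 counts).

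The 3 genes of placental lactogen I show how close such copies are. Bases 58 to 117 of the 672-base coding sequence, from the GENCODE M21 transcripts, are printed with the positions that differ among the 3 in capitals.
Prl3d1: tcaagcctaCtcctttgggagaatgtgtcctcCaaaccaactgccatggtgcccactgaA
Prl3d2: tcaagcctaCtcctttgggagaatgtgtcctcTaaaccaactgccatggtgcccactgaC
Prl3d3: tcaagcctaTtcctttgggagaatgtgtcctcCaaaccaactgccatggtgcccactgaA

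This window holds 3 of the 16 positions that differ. Prl3d1, Prl3d2 and Prl3d3 shared 41.8%, 59.2% and 58.3% of their 65-base runs, so the gene behind each single count is uncertain.

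The genotypes were then compared. None of the 27 genes passed an adjusted p of 0.05 in edgeR (adjusted p 0.696 to 0.894), where 0.00404% of all genes did. KO and WT values overlapped in CPM for each of the 27, while the genotypes stood apart for 6.06% of all genes. At an unadjusted p under 0.05, 11 of the 27 genes differed, all of them higher in KO, against 4.51% of all genes higher and 0.166% lower. As 20 of the 27 were tested only through KO2, nothing is read from this count. DESeq2 gave no adjusted p for 10 of the 27, among them Prl3b1, Prl8a6, Prl8a9, Psg21 and Ceacam1, and called 0 of the other 17 (0.0323% of all genes). It had 3 members at an unadjusted p under 0.05, all higher, against 4.97% of all genes. A gene to which DESeq2 gives no p cannot enter this count, so it is not a share of the 27 and nothing is read from it. The likelihood ratio test of edgeR called 0 members, as did voom with a weight per embryo (0.0243% of all genes each).

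The fitted log2 fold changes, KO over WT, had a median of 6.13 over the 6 prolactins, 5.56 over the 12 Psg genes and 2.82 over the 9 Ceacam genes, beside 0.06 over all genes. These medians describe members that entered mostly through KO2, all 6 prolactins, 9 of the 12 Psg genes and 5 of the 9 Ceacam genes, and support nothing. Without a filter on counts, the prolactin median was 2.02 over 19 genes. With genes at 0 in WT set to their bound, the first 2 medians were 4.67 and 4.27. Prl8a9 was at 7.21 (SE 2.49, adjusted p 0.696, edgeR) and Prl3b1 at 5.88 (SE 2.54, adjusted p 0.696). Psg16 was at 0.34 (SE 0.441, adjusted p 0.793) and Ceacam1 at 2.82 (SE 1.21, adjusted p 0.696). Standard errors of over 2 for the prolactins came with values carried by 1 of the 3 KO embryos. Prl2b1 and Prl8a8 were each at least 12.6-fold higher in KO against a floor of 3 counts over the WT group, and Psg26 was at least 27.2-fold higher. The ratio for Prl3b1 was 69.8 (counting interval 26.9 to 258) and for Psg21 102 (34.5 to 498). These bounds and intervals describe the reads and not the spread between embryos.

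The direction rested on KO2. Without it, 7 of the 55 genes reached 10 counts, 0 prolactins, 3 Psg and 4 Ceacam genes. Their median log2 fold change was -0.09, Psg16 was at -0.09, Psg29 at -0.46 and Psg17 at -0.20, and edgeR called 0 of them (0% of all genes). Ceacam1 was the one member of the 7 at an unadjusted p under 0.05, where 12.3% of all genes were higher. Its log2 fold change was 3.32 without KO2 and -0.04 without KO3. Without KO3, the prolactin and Psg medians were 6.78 and 6.23, and edgeR called 0 of 26 members (0.0171% of all genes, smallest adjusted p 0.981). At an unadjusted p under 0.05, 20 of the 26 were higher, against 1.09% of all genes, but 19 of the 26 were tested only through KO2 and nothing is read from this count.

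Other placental genes were examined to see which cell layers the KO2 reads covered. The placental cathepsins, lysosomal proteases whose genes also lie on chromosome 13, are products of trophoblast. Of 8 genes, 6 had 10 or more counts and all 6 were highest in KO2. Cts3 had 98 counts in KO2 and 1 in WT1, and Ctsj with 53 and Ctsq with 49 had none elsewhere. Ctsm had 12 in KO2 and 0 to 7 in the other embryos. Summed, the list stood at 3.14 CPM in KO2 and at most 0.0767 CPM elsewhere.

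Tpbpa and Tpbpb, the trophoblast-specific proteins that define the spongiotrophoblast, had 221 and 226 counts in KO2. Elsewhere Tpbpa had 6 in WT1, 5 in WT3 and 1 in KO3, and Tpbpb had 3 in WT1 and 1 in WT3. The other spongiotrophoblast and glycogen cell genes did not follow. Plac1 had 4 counts in KO2 and 210 in KO3, and Ascl2 had 14 in KO2 and 35 in KO3, while Flt1 and Pcdh12 are genes of vessels as well and were present in all embryos. Of the 7 genes of the labyrinth, the exchange layer, those that define its syncytiotrophoblast had few or no counts. Synb, the syncytin B gene of the syncytiotrophoblast, had no count, Syna had 2 counts in KO2 and 17 in KO3, and Gcm1 had 0 in KO2 and 5 in KO3. The genes of this list that other cells also use were present throughout. Ly6e had 3585 counts in KO2 and 1911 to 4489 in the others, while Slc16a3 with 349 and Tfeb with 103 had their highest plain CPM in KO2, above 302 and 85 counts at most elsewhere. The place of Tfeb depends on the scaling. The normalization factors of edgeR were 1.10 in KO2 and 0.684 in KO3, and scaling Tfeb by them puts KO3 above KO2. Summed, the list stood at 53.0 CPM in KO2 and 32.1 to 59.8 CPM in the other embryos. Among transcription factors of trophoblast, Hand1 had 3 counts and Cdx2 had 1, all in KO2, and Rhox9 had 10 in KO2 and 1 each in WT1 and WT3. Elf5 had 9 counts in KO2 and 2747 in KO3. Eomes, Gata2, Gata3, Esrrb and Tfap2c were present in all 6 embryos.

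The 12 genes for maternal decidua and its uterine natural killer cells fell into low and broadly present members. Among the granzymes of uterine natural killer cells, Gzmg had 6 counts, Gzmd 3 and Gzmf 3 in KO2, with none elsewhere. Gzmc had 3 in KO2 and 1 each in WT1 and WT3. Gzme had 1 count each in KO2 and WT3, and Prf1 had 1 each in KO2 and WT1. Hoxa10 had no count, Hoxa11 had 1 in KO2, and Hand2 had 57, all in KO3. Pgr, Esr1 and Wnt4 were present in all embryos, with 610, 118 and 934 counts in KO2, and Wnt4 had its highest CPM there, at 12.2 against 2.08 to 10.5 elsewhere. The list summed to 21.97 CPM in KO2 and 15.4 to 21.6 CPM in the others. Xist, transcribed from the inactive X of female cells, had 25 counts in KO2 and 15 to 53 in the others. The 4 Y chromosome genes Ddx3y, Eif2s3y, Kdm5d and Uty summed to 235 CPM in KO2 and 205 to 360 CPM in the others. By these genes all 6 embryos were male. Among placental serpins, Serpinb9g had 3 counts in KO2 alone, and Serpinb9b had 16 to 21 in every embryo. No gene of these lists was called by edgeR (adjusted p 0.696 or above).

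**Figure D5:**
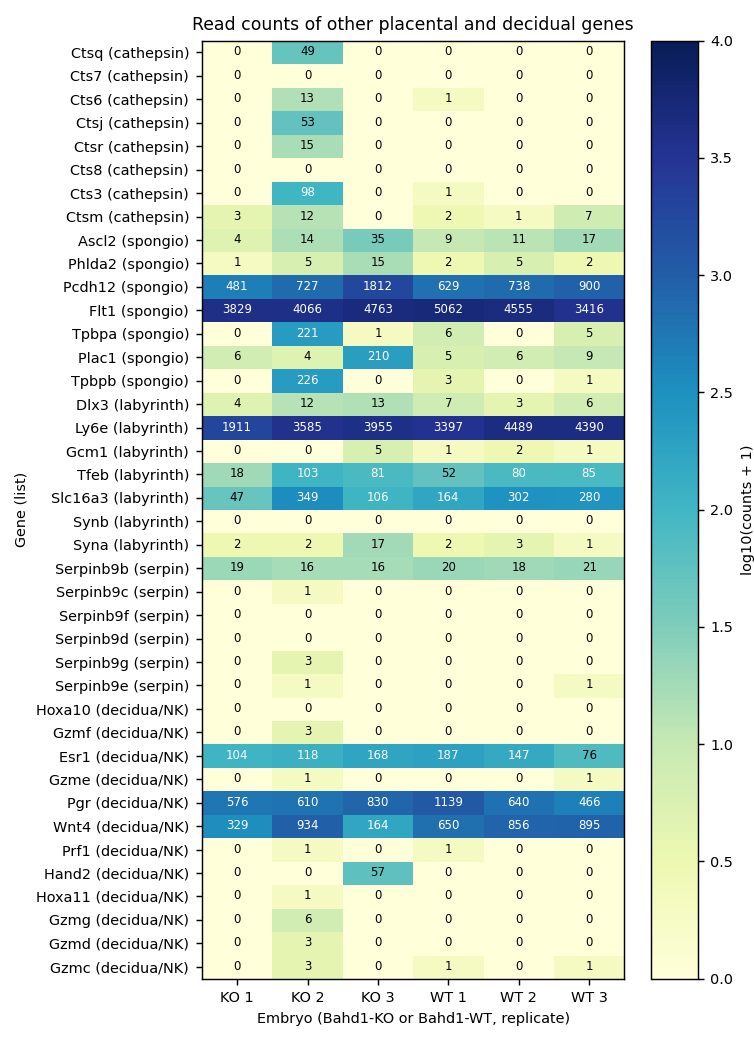
Read counts of genes from other placental and decidual lists in each embryo, shaded by log10(counts + 1). The cathepsins Cts3, Ctsj and Ctsq and both Tpbp genes are filled in KO 2 with 49 to 226 counts, Synb and Hoxa10 are 0 in every embryo, and Plac1 is highest in KO 3 with 210 counts.

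The genes whose CPM most resembled the summed prolactin CPM over the 6 embryos were sought among 19642 other genes with 50 or more counts. At a Pearson r of 0.99 or more there were 6, Tpbpa, Tpbpb, Gpx4-ps2, Cts3, 1600012P17Rik and Ctsj. Gpx4-ps2, a pseudogene, had 88 counts in KO2 and 3 to 9 in each of the others, and 1600012P17Rik, a non-coding RNA, had 80 in KO2 and 2 each in KO3 and WT3. Such an r rests on the single value of KO2 and describes no relation across the other embryos. On log2(CPM + 0.1), Tpbpa and Tpbpb alone reached it.

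Receptors and partners of the families were present in all embryos. Prlr, the prolactin receptor on which placental lactogens act, had 471, 371 and 871 counts in KO and 717, 463 and 261 in WT. Of the 9 genes of its pathway, including Jak2, Stat5a, Stat5b and the feedback inhibitors Socs1, Socs2, Socs3 and Cish, none was called, 6 had a log2 fold change above 0 and 3 below, and the median was 0.21. Cish, a target of the pathway, had 667 counts in KO2, 240 and 341 in KO1 and KO3, and 424 to 809 in WT, so KO2 lay within the WT range. Cd9, the receptor of Psg17, had 2101, 3264 and 12516 counts in KO and 2643 to 3332 in WT, and none of 4 Psg and Ceacam partners was called. The pituitary hormone gene Prl itself, the founder of the family, had 13 counts in WT1, 4 in KO3 and 1 in WT2, and 0 in KO2. Pituitary prolactin thus did not accompany the placental members.

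Other tissues that moved with KO2 were read alongside. The 7 red blood cell genes summed to 654 CPM in KO2, 170 and 287 CPM in KO1 and KO3, and 139 to 554 CPM in WT. Scgb1a1, a secretoglobin of the airways, had 511 counts in KO2, 352 in KO3 and 4 to 15 in the others, and Sftpc, a surfactant protein, had 225 in KO2, 44670 in KO3 and 0 to 11 in KO1 and the WT embryos. The neuronal genes of KO2, at 8001 CPM, lay within the range of the WT embryos. Afp, of liver and yolk sac, had 71 counts in KO2, 141 in KO3, 23 in KO1 and 2340 in WT3. The part of these tissues in the family values of KO2 was not tested.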

How the data were processed

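The authors purified polyadenylated RNA from total brain RNA and sequenced stranded libraries as 65-base single-end reads, with a paired-end run also described without its libraries. They trimmed the reads with cutadapt 1.11, aligned them to GRCm38 and counted them over Ensembl exons with featureCounts 1.4.6-p3 by strand. The submitters' notes name STAR 2.5.0a, while the methods also name TopHat2, and which made this table is not stated. The deposited values are whole-number counts without normalization, with a column for each embryo. Counting by position can miss reads that match several copies.

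Genes whose counts summed to 10 or more were tested by the quasi-likelihood method of edgeR (version 4.0.16, R 4.3.3), with TMM (trimmed mean of M-values) factors, genotype as the only term, two-sided, and Benjamini-Hochberg adjustment over 24739 genes at 0.05. Alternatives were DESeq2 1.42.0, voom (limma 3.58.1), other filters and factors, the likelihood ratio test, Gm42418, Lars2 and mitochondrial genes left out, a replicate block and each embryo left out. Levels were CPM, and RPKM over GENCODE M21 exons. Intervals were exact Poisson or Clopper-Pearson at 95%, and at 0 counts the limit is 3 counts. The edgeR fit was tested on simulated data.

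All 55 members were matched to GENCODE M21, as were 53706 of 53801 genes. Genes with 10 or more counts are named with every embryo's value. In other lists up to 4 genes with most counts were to be named, and those named beyond that were chosen after their values were seen. Members and lists were chosen with earlier results of these data known. No columns were left unassigned.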

Additional observations from a re-analysis of the deposited data

How the results depend on the processing

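No member was called in any alternative, and of 384 alternative log2 fold changes of the 27 tested members 380 kept their sign. As 20 of the 27 reached the minimum only through KO2, they have no value without it, and nothing is read from this count. The number of genes called in all was 1, and became 8 with DESeq2, 6 each with voom weights and with the edgeR likelihood ratio test, 0 with the replicate block (517 at an unadjusted p under 0.05) and 0 with Gm42418, Lars2 and mitochondrial genes left out. It was 0 to 4 with 1 embryo left out, 4 without KO3. The median log2 fold change of the prolactins was 2.02 without a filter and 3.02 with voom weights, and 5.95 to 6.78 with 1 embryo left out. No value was possible without KO2 or under filterByExpr, where no prolactin was left to test. The Psg median was 0.34 under filterByExpr, where 2 genes were left, 2.68 with voom weights and -0.20 (without KO2) to 6.23 with 1 embryo left out. The Ceacam median was 0.89 with voom weights and 0.60 (without KO2) to 4.96 (without WT3). Signs turned when 1 embryo was left out for Ceacam1 (-0.042 to 3.32), Psg16 (-0.091 to 0.62), Psg17 (-0.20 to 1.56) and Psg29 (-0.46 to 0.64), for Ceacam1 without KO3 and for the Psg genes without KO2. The Ceacam share of KO2 was 31.0% in CPM, 23.8% with TMM-scaled library sizes and 21.8% with Gm42418, Lars2 and mitochondrial genes left out. That of KO3 was 48.5%, 60.1% and 63.8%. The Psg share of KO2 was 46.3%, 44.1% and 44.2% in the same order, and the prolactin share 95.9%, 95.7% and 95.7%. Why the other values moved was not tested.

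Equal replicate numbers did not pair the embryos. The correlation of embryos' deviations from their genotype was 0.162, 0.242 and -0.102 for equal numbers and -0.432 to 0.305 for unequal ones. With the replicate block 0 members were called, 4 of 27 had an unadjusted p under 0.05 (2.09% of all genes; 20 of the 27 were tested only through KO2), and the medians were 5.51, 4.33 and 1.22 for prolactins, Psg and Ceacam genes. At 1 count for 0.0109 to 0.0162 CPM, genes of a few counts cannot be compared between embryos.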
